A study of Mus musculus with 47 samples.

Results

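A set of 32 genes of mouse tibialis anterior muscle, out of 13500 in the deposited table, was chosen for a difference between 2 times of day that was large in adrenalectomised mice given dexamethasone and small in every other condition of the study. The members were selected on measured values: the mean level at zeitgeber time (ZT) 12 minus the mean level at ZT0, both as log2(FPKM + 1), had to be at least 0.6 in size with dexamethasone and under 0.2 in size in each of the 5 other conditions. FPKM is a fragment count scaled to gene length and library size. Of the 32 genes, 18 were higher at ZT0 and 14 were higher at ZT12. The time difference with dexamethasone and the flatness elsewhere are therefore the definition of the set, and they are described here with no test.

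The study sequenced bulk RNA of whole tibialis anterior muscle, a fast muscle of the lower leg, from female C57BL/6 mice fed ad libitum, at ZT0 (lights on) and ZT12 (lights off). Wild-type mice were sham-operated (WT sham, aged 9 to 12 weeks), adrenalectomised (WT ADX, 12 to 17 weeks), adrenalectomised and given 0.5 mg/kg adrenaline (WT ADX+ADR, 13 to 14 weeks), or adrenalectomised and given 5 mg/kg dexamethasone (WT ADX+DEX, 14 weeks apart from 1 ZT0 mouse of 11 weeks). Mice termed RE-RE, Bmal1(stopFL/stopFL) animals that carry 2 transgenes, Syt10-Cre(-/tg) and Hsa-Cre(-/tg), with Cre under the Syt10 and Hsa promoters, were sham-operated (RE-RE sham, 9 to 14 weeks) or adrenalectomised (RE-RE ADX, 8 to 18 weeks). There were 47 libraries in 12 groups, 4 in each group but WT ADX at ZT0, which had 3. Both adrenal glands were removed in 2 operations, and saline with glucose was provided. Drugs were given into the peritoneum for 10 days at ZT12, and the design text then names 2 weeks before tissue was taken, so the time between the last dose and collection was not clear. No group received vehicle injections, so injection and drug cannot be told apart.

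Glucocorticoids are adrenal steroid hormones that rise before the active phase, and dexamethasone is a synthetic agonist of their receptor. The glucocorticoid receptor, encoded by Nr3c1, moves to the nucleus once it binds a ligand and raises or lowers transcription of many genes, in muscle including genes of protein breakdown and amino acid metabolism. The muscle clock, in which BMAL1 and CLOCK drive their own repressors, sets daily rhythms beside such hormone signals. Adrenaline acts instead through adrenergic receptors at the cell surface and cyclic AMP.

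A search of 300-base promoters, 250 bases before to 50 after the start (RefSeq, GRCm38.p6), found an entry for 22 of the 32 genes. These genes had 27 windows, as some have more than 1 start. Windows were searched on both strands, and a gene counted if any of its windows matched. The single glucocorticoid receptor site AGAACA was found for Serpina3n and Parp8, 9.09% of the matched members, against 21.3% of the 27025 genes in the promoter table. The full palindrome of facing sites was found for no member and for 0.0111% of all genes. The E-box CACGTG, the letters that BMAL1 and CLOCK bind, was found for Lrrc58, Ptprs and Etl4, 13.6% against 8.09%. The cyclic AMP response element TGACGTCA was found for Ptprs and Tenm3, 9.09% against 2.03%, and its part TGACG, which overlaps it, for 6 members, 27.3% against 23%. The D-box TTATGTAA and the ROR element were found for no member, against 1.11% and 0.459% of all genes. These are letter matches in a short window and say nothing of binding.

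The 250 bases before the start are shown for Serpina3n, a secreted protease inhibitor with such a site (chr12:104406458-104406707, plus strand, AGAACA in capitals), for Lrrc58, with 1 E-box (chr16:37868150-37868399, plus strand, E-box in capitals), and for Ptprs, with 3 E-boxes (chr17:56476481-56476730, minus strand, E-boxes in capitals), each 5′ to 3′ on the gene's strand.
Serpina3n: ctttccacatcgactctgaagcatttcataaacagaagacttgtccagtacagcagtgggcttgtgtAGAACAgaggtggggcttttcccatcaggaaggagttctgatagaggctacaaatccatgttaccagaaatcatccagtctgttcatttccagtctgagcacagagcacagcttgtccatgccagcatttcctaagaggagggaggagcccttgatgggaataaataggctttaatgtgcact
Lrrc58: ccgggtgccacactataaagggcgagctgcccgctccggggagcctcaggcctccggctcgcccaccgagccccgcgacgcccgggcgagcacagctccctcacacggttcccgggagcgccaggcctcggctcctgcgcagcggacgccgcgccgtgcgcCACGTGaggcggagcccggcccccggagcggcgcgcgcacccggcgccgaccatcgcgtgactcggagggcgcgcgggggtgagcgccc
Ptprs: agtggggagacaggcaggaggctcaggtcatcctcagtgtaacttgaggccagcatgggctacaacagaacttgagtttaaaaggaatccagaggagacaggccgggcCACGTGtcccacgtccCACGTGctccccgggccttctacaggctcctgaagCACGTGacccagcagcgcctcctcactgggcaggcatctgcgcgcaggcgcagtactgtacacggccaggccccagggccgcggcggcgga
The AGAACA of Serpina3n began 183 bases before the start, the E-box of Lrrc58 89 bases before it, and the E-boxes of Ptprs 142, 126 and 91 bases before it. A further Ptprs window (chr17:56462172-56462471) held no E-box, and Etl4 also has windows without an E-box. Serpina3n and Lrrc58 were higher at ZT0 and Ptprs was higher at ZT12, as described next.

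Total depth can be estimated from the table in part. For each library it was set at the smallest depth that made values of 68 rarely detected genes whole multiples of 1 read. This gave 16.3 to 35.4 M reads a library, and 19.2 to 25.8 M with dexamethasone, with 98.2% of 657 values within 0.05 read. The depth was fitted to these same values, so that share is no separate check. Multiples of the depth would fit as well. Of the members' 1431 values above 0, 9.43% were whole within that tolerance, where 10% is what chance gives, so counts could not be recovered for them. Exact equal values below 1 FPKM were shared with another library of the same group by 40 of 47 libraries (25 to 103 genes each, 41 to 52 with dexamethasone), and by the other 7 for at most 1 gene. Whether the libraries of a group were processed independently is therefore not known, and p-values measure the spread between the deposited libraries.

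With dexamethasone, 497 genes, 3.68% of the table, differed by at least 0.6 between times, and 6.44% of those were flat by the second threshold in all other conditions. The same rule with another condition in the place of dexamethasone kept 14 genes for WT ADX+ADR, 5 for WT ADX, 3 for WT sham, 1 for RE-RE sham and 0 for RE-RE ADX. The plot of time differences shows all 6 conditions for each member. All 32 members were protein coding and lay on 16 chromosomes, with 5 on chromosome 15.

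**Figure D1:**
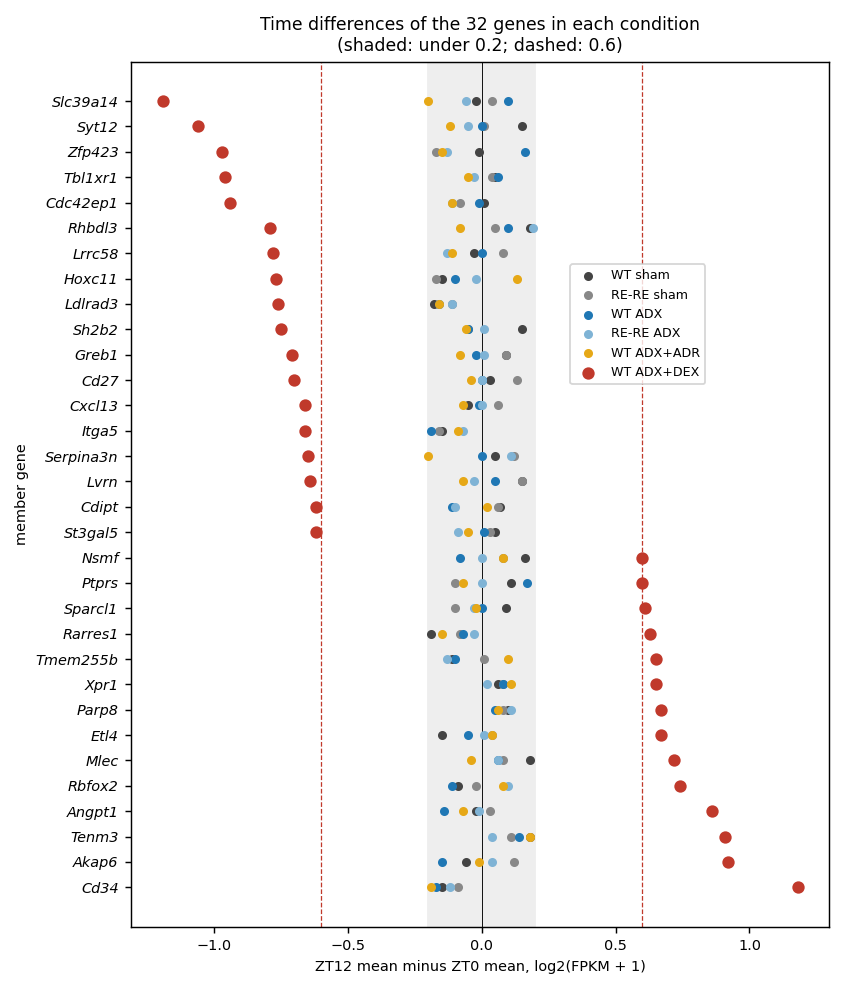
Each row is 1 of the 32 genes and each point 1 condition. The x axis is the mean at ZT12 minus the mean at ZT0 on the log2(FPKM + 1) scale. The red points of WT ADX+DEX lie beyond 0.6 on either side, and all other points lie within the shaded band of 0.2, because the genes were chosen that way.

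Among genes higher at ZT0, the largest difference was that of the metal ion importer Slc39a14 (chr14:70303469-70351425), which brings zinc, iron and manganese into cells. Its FPKM at ZT0 with dexamethasone was 5.86, 6.92, 7.49 and 8.67, and at ZT12 it was 2.57, 2.80, 2.61 and 2.37. The 39 libraries of the other conditions lay between 1.06 and 2.1, so the dexamethasone libraries of both times were above all of them, and those of ZT0 farthest.

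The GM3 ganglioside synthase gene St3gal5 (chr6:72097592-72154571), whose product makes the simplest ganglioside of cell membranes, had the highest level with dexamethasone of the genes higher at ZT0. It was 45.4, 53.4, 44.6 and 73.6 FPKM at ZT0 and 33.8, 32, 35.6 and 36.2 FPKM at ZT12. The other conditions ranged from 2.42 to 20.9 FPKM, below every dexamethasone library. The phosphatidylinositol synthase gene Cdipt was at 21.4, 21.4, 22.8 and 24.7 FPKM at ZT0 and at 13.6, 14.1, 14.8 and 14.8 FPKM at ZT12. Only its ZT0 libraries were above the other conditions, which spanned 10.8 to 16.2. Ldlrad3, a membrane protein of the LDL receptor family, had a mean of 3.41 FPKM at ZT0 and 1.59 FPKM at ZT12 against a highest library of 1.67 elsewhere.

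Regulators of transcription formed a further group. Zfp423 (chr8:87661810-87959595), a zinc finger factor of fat cell commitment, was at 4.93, 5.86, 6.07 and 5.17 FPKM at ZT0 and at 2.35, 2.53, 2.08 and 2.29 FPKM at ZT12, with 0.896 to 2.57 elsewhere. Its ZT0 libraries stood clear of all others and its ZT12 libraries overlapped them. Tbl1xr1 (chr3:22076652-22216594), a subunit of the NCoR corepressor complex, behaved otherwise. It was at 4.73, 5.70, 5.85 and 6.56 FPKM at ZT0 and at 2.42, 2.40, 2.45 and 2.43 FPKM at ZT12, against 3.16 to 5.00 elsewhere. At ZT0 all but the lowest of the 4 libraries were above the other conditions, and at ZT12 all were below them. Hoxc11 (chr15:102954427-102957708), a homeobox factor of hindlimb identity, was at 6.81, 7.51, 8.02 and 6.92 FPKM at ZT0 and at 3.27, 4.04, 4.41 and 3.87 FPKM at ZT12, against 3.67 to 6.62 elsewhere. Its ZT0 libraries were above all others, and at ZT12 1 library was below the others and 3 were inside their range. Greb1, a cofactor of steroid receptors, had 1.45, 1.77, 1.85 and 0.896 FPKM at ZT0 and 0.513, 0.508, 0.524 and 0.456 FPKM at ZT12, and no other library passed 0.320 FPKM.

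Genes of signalling, adhesion and membrane traffic divided by where their ZT12 level lay. Syt12 (chr19:4445908-4477447), a synaptotagmin of vesicle traffic, was at 3.41, 3.56, 3.69 and 4.98 FPKM at ZT0 and at 1.29, 1.30, 1.47 and 1.33 FPKM at ZT12. Each of the 7 WT ADX libraries had it at 0, and it reached at most 0.769 FPKM in the other conditions, so both dexamethasone groups were above all of them. Lrrc58 (chr16:37868389-37888858), a leucine-rich repeat protein, was at 5.88, 6.37, 6.92 and 8.92 FPKM at ZT0 and at 3.49, 3.59, 3.87 and 3.55 FPKM at ZT12. Elsewhere it held between 2.51 and 3.50 FPKM, a narrow band that the ZT12 libraries touched. Rhbdl3, of the rhomboid family, was at 2.45, 2.99, 3.27 and 3.27 FPKM at ZT0 and at 1.24, 1.17, 1.58 and 1.23 FPKM at ZT12, the latter inside the 0.560 to 2.53 of the other conditions.

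Cdc42ep1 (chr15:78842624-78850897), an effector of the small GTPase Cdc42 that shapes the actin cytoskeleton, was at 7.34, 7.02, 7.20 and 7.66 FPKM at ZT0 and at 4.28, 3.34, 2.77 and 3.10 FPKM at ZT12. The other conditions ran from 5.53 to 13.9, so here ZT0 was ordinary and ZT12 was low. Itga5, the alpha subunit of the fibronectin receptor, was likewise at 3.40, 3.33, 3.05 and 5.76 FPKM at ZT0 and at 2.43, 1.91, 2.1 and 1.71 FPKM at ZT12, against 2.56 to 7.34 elsewhere. Sh2b2, an adaptor of the insulin receptor, was at 0.861, 1.27, 1.33 and 1.30 FPKM at ZT0 and at 0.411, 0.267, 0.327 and 0.185 FPKM at ZT12, against 0.238 to 0.816. At ZT0 every library was above all others, and at ZT12 the lowest was below them and the other 3 were inside their range.

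The last group that was higher at ZT0 held secreted and immune-related genes of low level. Serpina3n (chr12:104406729-104414329), a secreted inhibitor of serine proteases, was at 5.62, 3.55, 3.75 and 4.99 FPKM at ZT0 and at 2.85, 2.19, 3.09 and 1.84 FPKM at ZT12. Each of the 7 WT ADX libraries had it at 0, and its highest value in any other condition was 1.17 FPKM, with adrenaline. Cd27, a receptor of the TNF family on lymphocytes, was at 1.81, 1.93, 1.96 and 2.18 FPKM at ZT0 and at 0.847, 0.790, 0.847 and 0.796 FPKM at ZT12, against at most 0.194 elsewhere. For both genes every dexamethasone library was above all 39 others. Cxcl13, a chemokine that attracts B cells, had means of 1.03 and 0.260 FPKM, and the aminopeptidase gene Lvrn had means of 1.22 and 0.422 FPKM at ZT0 and ZT12. Both were also above every library of the other conditions at both times.

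Among the 14 genes higher at ZT12, Cd34 (chr1:194938819-194961279) had the largest difference. It encodes a sialomucin found on endothelial cells, satellite cells and fibro-adipogenic progenitors. In the 4 dexamethasone libraries of ZT0 it was at 0.893 and 0.0509 FPKM and listed at 0 in the other two, and at ZT12 it was at 2.11, 1.47, 2.09 and 1.21 FPKM. The other conditions ranged from 3.77 to 22.1 FPKM, with the 7 WT ADX libraries between 18.4 and 22.1. Every dexamethasone library was therefore below every other library, and ZT0 lowest. The collagen genes Col1a1 and Col3a1, abundant in connective tissue, were also listed at 0 in all 8 dexamethasone libraries (means of 19.2 to 71.6 FPKM in WT ADX), so a value of 0 in this table may be a failed estimate and no fold is given against it.

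Other genes of vessels and connective tissue followed. Angpt1 (chr15:42424723-42676977), the ligand of the endothelial receptor TIE2, was at 4.05, 3.85, 3.64 and 3.39 FPKM at ZT0 and at 8.06, 7.19, 7.22 and 7.79 FPKM at ZT12. Median levels elsewhere were 4.63 FPKM for WT sham, 5.47 for WT ADX, 7.46 with adrenaline, 8.46 for RE-RE ADX and 8.50 for RE-RE sham. The ZT12 libraries were within the range of the others (3.56 to 10.1), and the ZT0 libraries were at its lower end. Tek, which encodes TIE2, is no member and is named as the receptor of Angpt1. It had 6.73 ± 1.18 FPKM at ZT0 and 9.18 ± 1.13 FPKM at ZT12 with dexamethasone (SD, n = 4 each), a limma difference of 0.40 ± 0.11 (SE, log2(FPKM + 1), adjusted p = 0.00558). Tek is also in the list of endothelial markers, which went both ways between times, as given below. Its time differences in the other conditions are not given here.

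Sparcl1 (chr5:104079111-104113733), a secreted matricellular protein, was at 30.9, 30.2, 33.7 and 27.7 FPKM at ZT0 and at 53.1, 49.2, 44.4 and 42.9 FPKM at ZT12. All were below the other conditions, which lay between 65.6 and 141 FPKM. Rarres1, a retinoic acid responsive gene, was at 0.306, 0.00903, 0.183 and 0 FPKM at ZT0 and at 0.964, 0.921, 0.667 and 0.426 FPKM at ZT12, against 0.585 to 3.39 elsewhere. Its ZT0 libraries were below all others and its ZT12 libraries overlapped them.

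Akap6 (chr12:52699383-53155599), an anchor of protein kinase A at the nuclear envelope of muscle cells, was at 0.971, 1.11, 1.09 and 0.749 FPKM at ZT0 and at 3.09, 2.75, 2.23 and 2.97 FPKM at ZT12. The other conditions held 3.63 to 7.72 FPKM, so all dexamethasone libraries were low and those of ZT0 lowest. Mlec, a lectin of the endoplasmic reticulum that binds newly made glycoproteins, was at 12.1, 13.2, 14.8 and 14.0 FPKM at ZT0 and at 20.9, 25.7, 23.3 and 21.8 FPKM at ZT12, against 20.8 to 59.1. The phosphate exporter gene Xpr1 had means of 3.55 FPKM at ZT0 and 6.16 FPKM at ZT12, and the other libraries spanned 4.84 to 8.22. In Mlec and Xpr1 only the ZT0 libraries were below all others.

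Regulators of RNA and of proteins after translation were represented by Rbfox2 and Parp8. The splicing factor gene Rbfox2 (chr15:77078990-77307004) was at 5.86, 6.74, 7.37 and 5.11 FPKM at ZT0 and at 10.9, 11.1, 11.7 and 10.6 FPKM at ZT12, against 9.69 to 18.7 elsewhere. Parp8, of the ADP-ribosyltransferase family, was at 3.02, 3.47, 3.62 and 2.63 FPKM at ZT0 and at 5.46, 5.80, 5.02 and 6.24 FPKM at ZT12, against 5.32 to 10.5. At ZT0 both were below all other libraries, and at ZT12 both overlapped them.

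Among genes of adhesion and cell surface signalling, Tenm3 (chr8:48227682-48843951), a teneurin that joins neighbouring cells, was unlike the rest of the set. It was at 1.12, 1.22, 1.29 and 1.17 FPKM at ZT0 and at 3.01, 3.07, 3.06 and 3.37 FPKM at ZT12, against 0.970 to 2.04 elsewhere, so ZT0 was ordinary and ZT12 was above all others. Etl4 was at 5.12, 5.15, 4.76 and 4.93 FPKM at ZT0 and at 9.46, 8.31, 7.74 and 8.73 FPKM at ZT12, against 4.94 to 6.88, and was also raised at ZT12. The receptor phosphatase gene Ptprs (chr17:56412426-56476483) was at 2.45, 2.81, 3.15 and 2.09 FPKM at ZT0 and at 4.43, 4.99, 4.64 and 3.88 FPKM at ZT12, all below the 6.67 to 11.7 of the other conditions. Nsmf, a synapse-to-nucleus messenger, was at 1.11, 0.900, 1.21 and 1.04 FPKM at ZT0 and at 2.73, 2.07, 1.93 and 1.86 FPKM at ZT12, against 2.01 to 5.01. The membrane protein gene Tmem255b had means of 0.753 FPKM at ZT0 and 1.76 FPKM at ZT12, against 1.78 to 4.77 elsewhere.

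**Figure D2:**
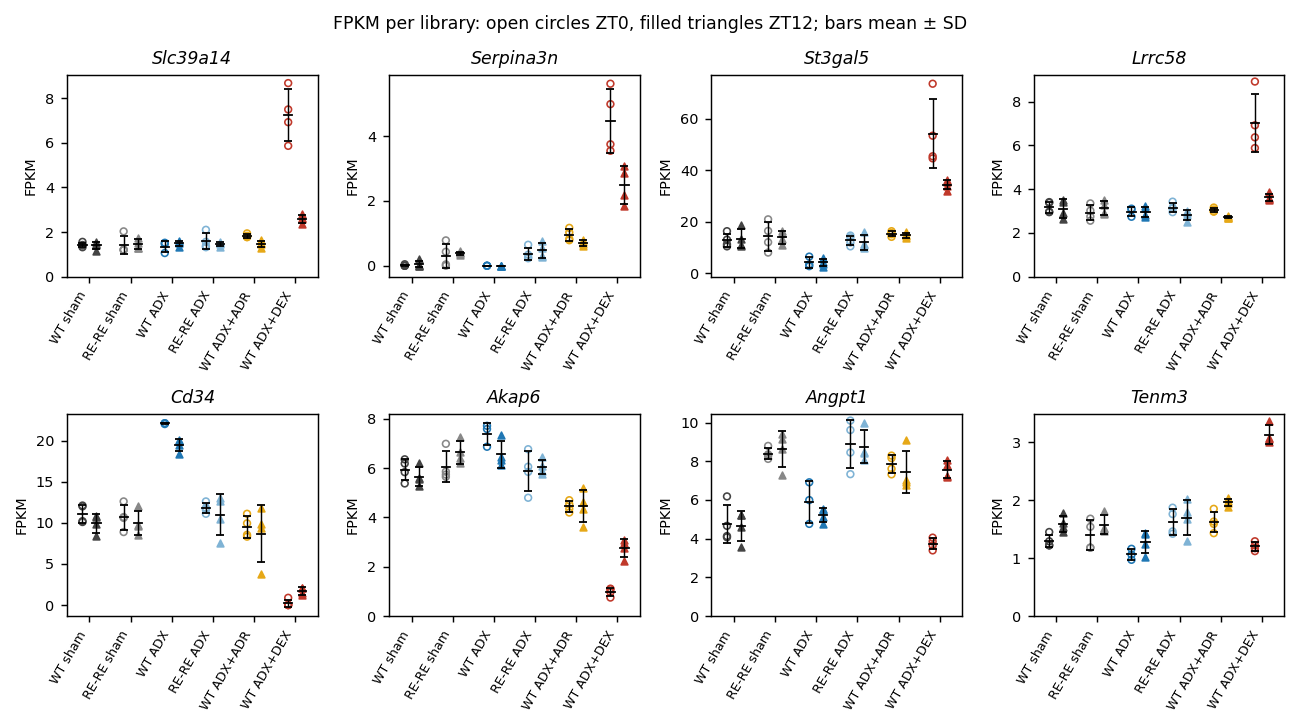
FPKM of 8 members (y axis) in every library of the 6 conditions (x axis), with open circles for ZT0, filled triangles for ZT12, and black bars for the mean ± SD of each group. Slc39a14, Serpina3n, St3gal5 and Lrrc58 peak in WT ADX+DEX at ZT0, Cd34 and Akap6 are lowest there, Angpt1 is low at ZT0 in WT ADX+DEX (3.39 to 4.05), and Tenm3 is high at ZT12 in WT ADX+DEX (3.01 to 3.37).

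The dexamethasone libraries of ZT0 and ZT12 did not overlap in any of the 32 genes. Set against the means of the other 10 groups, most of the genes lay outside at both times, and the ZT0 mean was more often the farther one. Of the 18 genes higher at ZT0, 11 had dexamethasone means above all 10 others at both times and 2 (Rhbdl3 and Cdipt) at ZT0 alone. A further 3 (Tbl1xr1, Hoxc11 and Sh2b2) were above at ZT0 and below at ZT12, and 2 (Cdc42ep1 and Itga5) were inside at ZT0 and below at ZT12. Of the 14 genes higher at ZT12, 9 were below all other means at both times, 3 (Xpr1, Rbfox2 and Angpt1) at ZT0 alone, Etl4 was below at ZT0 and above at ZT12, and Tenm3 was above at ZT12 alone. The ZT12 mean was the nearer of the dexamethasone means to the median of the other 10 in 15 of 18 and 12 of 14 genes, the exceptions being Tbl1xr1, Cdc42ep1, Itga5, Etl4 and Tenm3. All 4 ZT0 libraries lay outside all 39 others in 14 of 18 and 11 of 14 genes, and all 4 ZT12 libraries did so in 11 of 18 and 6 of 14. These counts include the choice of the genes and carry no test. The share of all 13500 genes that would meet the same descriptions was not computed, so nothing particular to the members is read from them.

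**Figure D3:**
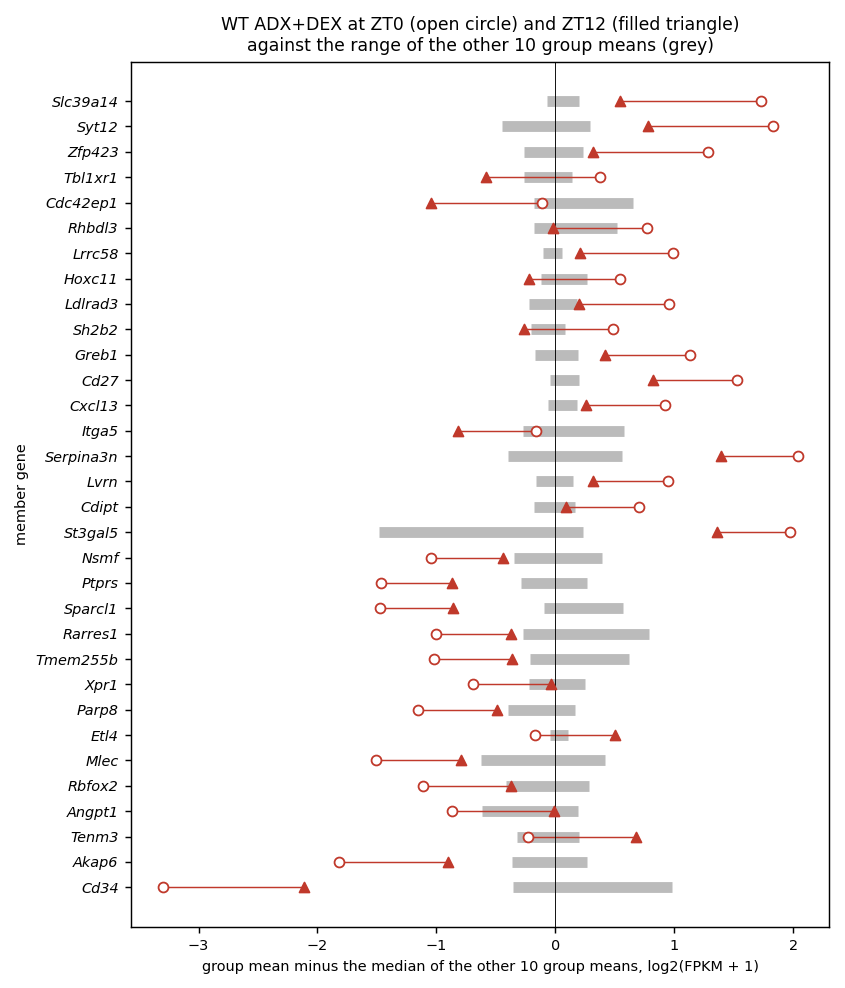
For each gene, the grey bar is the range of the 10 other group means, and red symbols are the WT ADX+DEX means at ZT0 (open circle) and ZT12 (filled triangle), all on the log2(FPKM + 1) scale minus the median of the 10. In 15 of 18 and 12 of 14 genes the triangle lies nearer to 0 than the circle.

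The values just inside the threshold were 0.602 for Nsmf, 0.602 for Ptprs, 0.613 for Sparcl1, -0.615 for St3gal5 and -0.621 for Cdipt (log2, ZT12 minus ZT0). Just outside it were Mgll at 0.594, Cd38 at 0.594, Ankrd6 at -0.591, Mir7078 at 0.591 and Itpk1 at -0.589. Car14, Ptpn11, Car9, Bmpr1a and Maf passed the first threshold and just missed the second. When 1 dexamethasone library was left out, the rule kept 26 to 41 genes. The left-out library was on the side of the time difference that the rule gave it in 87.8% to 100% of them. This is a description and no independent check. Whether libraries of a group were processed independently is not known, and no share for genes outside the rule was computed. Of the 32 members, 21 were kept in all 8 such runs, and Cxcl13, Itga5, Serpina3n, Lvrn, Cdipt, St3gal5, Nsmf, Ptprs, Sparcl1, Rarres1 and Tmem255b were lost at least once. More members were lost without the ZT0 mouse of 11 weeks than in any other of these runs: 26 genes were kept, 23 of them members. Without ZT12 replicate 8, 41 were kept, 31 of them members.

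The level of the members was the mean of ZT0 and ZT12. It is a measure other than the time difference, though the same libraries enter both. In comparisons with dexamethasone it is not independent of the choice. A gene flat elsewhere that departs at 1 dexamethasone time also shifts in its mean. Calls, and their split by the direction of the time difference, can follow from this. The level was tested across all 12000 genes that reached 1 FPKM in at least 3 libraries. The test was limma on log2(FPKM + 1), with Benjamini-Hochberg adjustment at 0.05. Of the 32 members, 31 passed this filter (Cxcl13 did not), and 6 of these (Syt12, Sh2b2, Greb1, Cd27, Serpina3n and Lvrn) passed through their dexamethasone libraries alone. Counts below therefore use the other 25, of which 11 were higher at ZT0 and 14 at ZT12. Differences are log2 differences of log2(FPKM + 1) ± SE, which understate changes of genes near 0.

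Against WT sham, all 25 were called: 11 were higher with dexamethasone and 14 were lower, where 34.8% and 35.1% of all tested genes were called higher and lower. Genes that were higher at ZT0 had a median difference of 0.54 and genes that were higher at ZT12 one of -0.77, against -0.00 for all tested genes. Both medians are split by the direction of the chosen time difference and carry no test. Zfp423 was higher by 0.86 ± 0.06, Slc39a14 by 1.17 ± 0.06 and St3gal5 by 1.67 ± 0.15. Akap6 was lower, with a difference of -1.32 ± 0.06 (adjusted p = 1.93e-21, means of 1.87 and 5.80 FPKM), as were Sparcl1 at -1.40 ± 0.07 and Cd34 at -2.68 ± 0.14. The value of Cd34 rests partly on libraries listed at 0. The 8 higher of the first group were Slc39a14, Zfp423, Rhbdl3, Lrrc58, Hoxc11, Ldlrad3, Cdipt and St3gal5, and Tbl1xr1, Cdc42ep1 and Itga5 were lower. In the second group only Etl4, Angpt1 and Tenm3 were higher. WT sham mice were 9 to 12 weeks old and the dexamethasone mice 14 apart from 1 of 11, and with age as a covariate 21 of 25 were called, without Hoxc11, Itga5, Etl4 and Angpt1. The call of Rhbdl3 was lost on the deposited scale.

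Against WT ADX, the group that differs by the drug and its injections, 8 of the 25 were higher and 14 lower, and 3 were not called, where 41% and 36.5% of all tested genes were called. St3gal5 had a difference of 3.14 ± 0.16, Slc39a14 of 1.16 ± 0.07, Sparcl1 of -1.73 ± 0.07, Akap6 of -1.55 ± 0.06, Mlec of -1.54 ± 0.07 and Cd34 of -3.60 ± 0.14. Rhbdl3, Hoxc11 and Angpt1 were not called, at -0.09 ± 0.07, 0.14 ± 0.07 and -0.03 ± 0.08. The WT ADX libraries stood apart in other genes: Nnt, a mitochondrial transhydrogenase gene, had a value of 0 in each of the 7 and was at 9.86 to 15.4 FPKM in the libraries of WT ADX+ADR and WT ADX+DEX. Its part in these differences was not tested. In WT sham, whose values are given above, Nnt was at 0 in 2 of 8 libraries.

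Against WT ADX+ADR, which shares the surgery and the injection schedule, 9 of the 25 were higher with dexamethasone and 14 lower, where 30.3% and 28% of all tested genes were called. Ptprs differed by -0.91 ± 0.06, Sparcl1 by -1.16 ± 0.07 (adjusted p = 2.18e-17) and Cd34 by -2.45 ± 0.14 (adjusted p = 5.51e-18). Higher were Slc39a14 by 1.03 ± 0.06, St3gal5 by 1.45 ± 0.15 and Lrrc58 by 0.64 ± 0.05. Hoxc11 and Tenm3 were not called, at -0.04 ± 0.07 and 0.11 ± 0.05.

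WT ADX+ADR was compared with WT ADX, a difference that holds no dexamethasone libraries. Its SE and adjusted p come from the fit to all 47 libraries, dexamethasone included. Adrenaline and injection cannot be told apart here, since no group received vehicle. Every WT ADX library had Nnt at 0, against 9.86 to 10.9 FPKM in WT ADX+ADR. Wdfy1 was at 0.0574 to 0.622 FPKM in WT ADX and at 1.45 to 2.07 FPKM in WT ADX+ADR. The part of this in the differences was not tested. Of the 25 members, 6 were higher and 15 lower with adrenaline, where 34.3% and 32.1% of all tested genes were called. Lower were Mlec by -0.99 ± 0.07 (means of 26.3 and 53.1 FPKM, adjusted p = 3.55e-15), Nsmf by -0.66 ± 0.05 (2.45 and 4.43 FPKM, adjusted p = 1.93e-13) and Cdc42ep1 by -0.77 ± 0.07 (7.27 and 13.0 FPKM, adjusted p = 7.39e-12). St3gal5 was higher by 1.69 ± 0.16 (15.0 and 4.15 FPKM, adjusted p = 2.23e-11). Slc39a14 was not called at 0.13 ± 0.07, nor were Lrrc58 at -0.03 ± 0.06, Ldlrad3 at 0.13 ± 0.06 and Etl4 at -0.02 ± 0.05. This comparison and the one of dexamethasone with WT ADX share the WT ADX libraries, so their values are set side by side and not correlated.

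After adrenalectomy of wild-type mice, 13 of the 25 genes were higher and 2 lower than in WT sham, where 19.8% and 26.2% of all tested genes were called. Among those with the smallest adjusted p, higher were Rarres1 at 0.93 ± 0.12 (means of 2.81 and 0.997 FPKM, adjusted p = 4.83e-08), Itga5 at 0.68 ± 0.09 (adjusted p = 7.58e-08) and Cdc42ep1 at 0.59 ± 0.07 (13.0 and 8.29 FPKM, adjusted p = 1.58e-08), and Cd34, higher by 0.92 ± 0.14, lost its call on the deposited scale. St3gal5 was lower, at -1.48 ± 0.16 (4.15 and 13.0 FPKM, adjusted p = 3.20e-09), and so was Tenm3 at -0.17 ± 0.05, whose call was lost with a replicate block. With age as a covariate 12 members were called, 11 of them among these 15, and Mlec, Rbfox2, Angpt1 and Akap6 were not called. Each WT ADX library had Nnt at 0, against 2 of the 8 from WT sham. Wdfy1 was at 0.0574 to 0.622 FPKM in WT ADX and at 1.81 to 4.11 FPKM in WT sham. Their part was not tested. Of the genes higher at ZT12 with dexamethasone, 9 of 14 were higher in WT ADX, and of those higher at ZT0, 4 of 11 were.

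In RE-RE mice after adrenalectomy, Ptprs was higher by 0.24 ± 0.06 (adjusted p = 0.00319) and Cdipt by 0.13 ± 0.05 (adjusted p = 0.0474), Tbl1xr1 was lower, at -0.20 ± 0.05 (adjusted p = 0.00404), and the other 22 of 25 were not called. Among all tested genes 6.78% were called higher and 11.3% lower. Without the 7 libraries that shared at most 1 exact low value with their group, 1 member was called here in place of 3. The difference between the effects of adrenalectomy in the 2 genotypes was added after the data had been seen. It was called for 11 of the 25 members, against 24.9% of all tested genes. It was positive for 9 (Cdc42ep1, Itga5, Nsmf, Sparcl1, Rarres1, Tmem255b, Rbfox2, Akap6 and Cd34), that is, ADX minus sham was higher in wild-type than in RE-RE mice. It was negative for St3gal5, at -1.48 in wild-type and -0.16 in RE-RE mice, and for Tenm3, at -0.17 and 0.10.

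**Figure D4:**
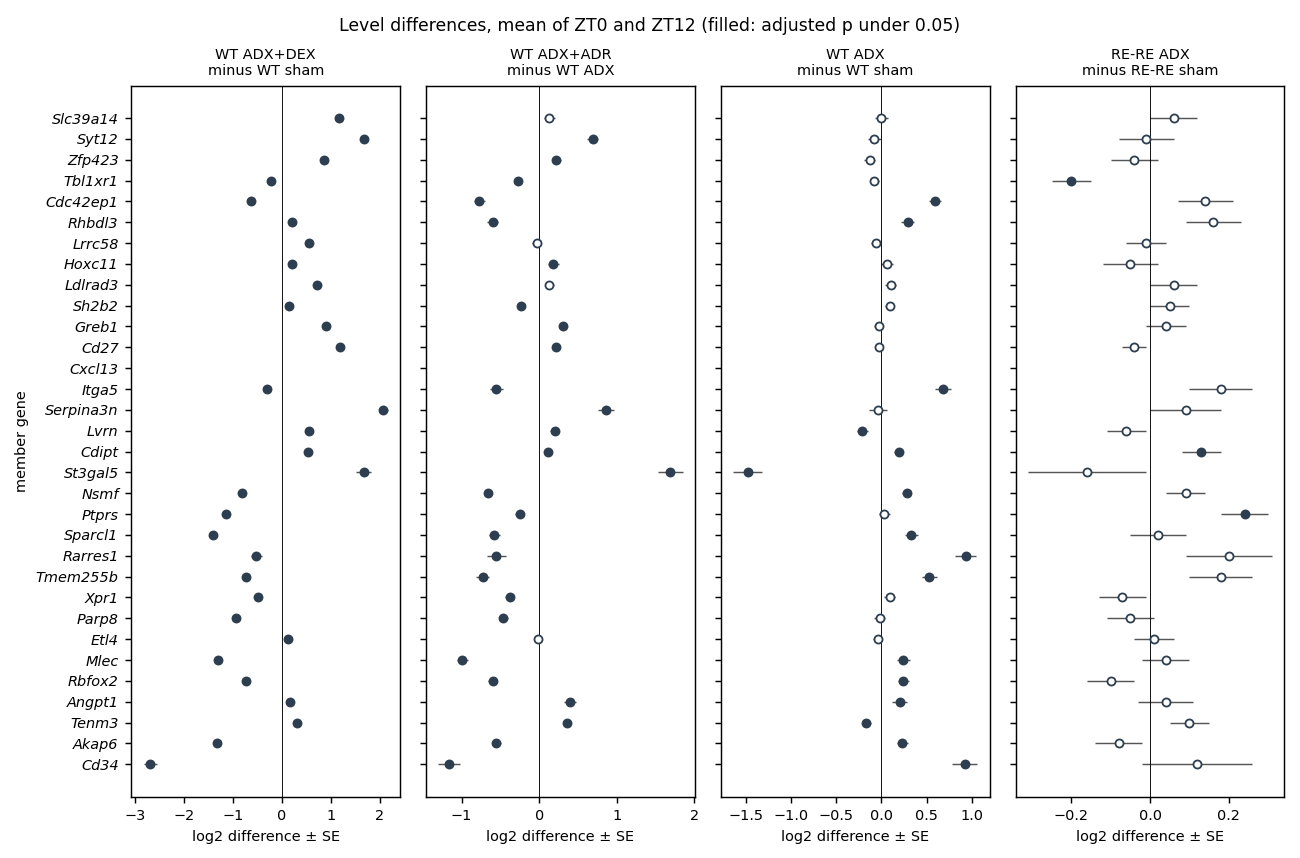
Level differences of the members (x axis, log2 difference of log2(FPKM + 1) ± SE, mean of both times) in 4 comparisons, each panel with its own scale, with filled points for adjusted p under 0.05. Cxcl13 was not tested. All 25 counted genes are filled for WT ADX+DEX minus WT sham (Syt12, Sh2b2, Greb1, Cd27, Serpina3n and Lvrn are drawn but not counted, since dexamethasone libraries alone admitted them), and 3 are filled for RE-RE ADX minus RE-RE sham.

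Other genes of the pathway were read from lists, chosen with earlier results of these data known. Of 29 glucocorticoid receptor target genes tested, 28 were higher with dexamethasone than in WT ADX and 1, Pdk4, was lower (median 1.96, all genes 0.02). Fkbp5, a chaperone that restrains the receptor, was at 91.9 ± 8.23 FPKM at ZT0 and 36.7 ± 0.879 FPKM at ZT12 with dexamethasone (SD, n = 4 each). Every WT ADX library had it at 0, but so did all 4 WT sham libraries of ZT0, and a 0 here may be a failed estimate. With adrenaline its means were 12.2 FPKM at ZT0 and 9.12 FPKM at ZT12. Between times with dexamethasone, 6 of the 29 targets were higher at ZT12 and 11 lower, where 14% and 13.7% of all tested genes were called. Lower at ZT12 were Fkbp5 by -1.30 ± 0.42 (adjusted p = 0.0165), Zbtb16 by -1.26 ± 0.28 (adjusted p = 0.000688), Glul, which makes glutamine, by -0.97 ± 0.20 (adjusted p = 0.000240) and the cell cycle inhibitor Cdkn1a by -1.08 ± 0.29 (adjusted p = 0.00408). Higher at ZT12 were Ddit4, an inhibitor of mTORC1, by 2.55 ± 0.45 (adjusted p = 3.36e-05) and Tsc22d3 by 0.61 ± 0.12 (adjusted p = 0.000176). In WT sham, 17 of the 29 were higher at ZT12 and 2 lower, where 14.2% and 10.1% of all tested genes were called. None of the 29 was a member of the set. The set holds only 32 of 13500 genes and leaves out any gene that differs between times elsewhere, so nothing is read from this.

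Of 19 core clock genes, 10 were higher and 5 lower at ZT12 with dexamethasone, and in WT sham 11 and 6. The shares of all tested genes were 14% and 13.7% with dexamethasone and 14.2% and 10.1% in WT sham. Arntl, which encodes BMAL1, was at 23.4 ± 2.02 FPKM at ZT0 and 5.33 ± 0.34 FPKM at ZT12 with dexamethasone, and at 14.2 to 18.8 and 0 to 0.758 FPKM in WT sham. Dbp, an output of the clock, was higher at ZT12 by 4.82 ± 0.44 (adjusted p = 6.56e-11). Of 10 heat shock genes, 0 were higher and 8 lower at ZT12 with dexamethasone, where 14% and 13.7% of all tested genes were called. Among the lower were Hspa1a at -1.02 ± 0.19 and Hspa1b at -1.09 ± 0.18, near-identical genes whose reads cannot be told apart with certainty. The heat shock counts of other conditions are not given here, so the fall is not read as particular to dexamethasone. Whether the counts of these lists differ between conditions was not tested. The receptor gene Nr3c1 was at 10.9 to 14.4 FPKM at ZT0 and 13.0 to 18.1 FPKM at ZT12 with dexamethasone, overlapping, and at 15.7 to 21.9 FPKM in WT sham.

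Markers of cell types were set beside the members, since in bulk muscle fewer cells of a type and less RNA per cell cannot be told apart. Muscle fibre genes were abundant in all groups, with Ckm means from 11744 to 16429 FPKM. All 8 endothelial markers were lower with dexamethasone than in WT ADX, where 36.5% of all tested genes were called lower. Their summed level was 90.3 to 95.1 FPKM at ZT0 and 83.0 to 101 FPKM at ZT12, overlapping. WT ADX was the highest condition, at 187 to 221 FPKM, and WT sham was at 121 to 152. With adrenaline the sum was 127 to 139 FPKM at ZT0 and 96.3 to 152 FPKM at ZT12, the latter overlapping the dexamethasone libraries. In RE-RE mice it was 108 to 151 FPKM. Between times with dexamethasone, 3 of the 8 endothelial markers were higher and 2 lower at ZT12, where 14% and 13.7% of all tested genes were called. Against the same shares, 5 of 8 macrophage markers were lower and 0 higher at ZT12. Their sums were 11.3 to 20.8 FPKM at ZT0 and 5.81 to 10.0 FPKM at ZT12, which do not overlap. Median macrophage sums were also lower at ZT12 in WT ADX (22.3 and 15.6 FPKM) and with adrenaline (22.7 and 14 FPKM), with overlap. In RE-RE sham the median was higher at ZT12 (15.7 and 18.1 FPKM). With dexamethasone, the sum over 5 satellite cell markers was 31.4 to 39.6 FPKM at ZT0 and 15.3 to 16.8 FPKM at ZT12, also without overlap. It was 12.7 to 23.8 FPKM in WT ADX. In RE-RE sham the sum was 20.1 to 26.2 FPKM at ZT0 and 13.1 to 17.8 FPKM at ZT12, again without overlap. In the remaining conditions the sums of the 2 times overlapped. Of the 4 satellite cell markers tested, Myf5 and Myod1, factors of myogenic commitment, were lower at ZT12 with dexamethasone, at -0.45 ± 0.08 and -1.19 ± 0.18. Vcam1 was higher by 0.34 ± 0.08 (limma log2 differences). The sum over 7 fibroblast markers without Cd34 was 340 to 382 FPKM at ZT0 and 286 to 376 FPKM at ZT12, and Col15a1 was listed at 0 in all 8 libraries. The part of these cell types in the members' values was not tested.

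The genes also differed in size on the genome, which the rule did not use. Genes higher at ZT12 had a median span of 103 kb, with 7 of 14 (50%) over 100 kb, among them Etl4 at 901 kb, Tenm3 at 616 kb and Akap6 at 456 kb. Genes higher at ZT0 had a median of 30 kb, with 4 of 18 (22.2%) over 100 kb, and all 11961 tested genes with an annotated span had 19.4 kb and 10.7%. These are descriptions of a chosen set.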

How the data were processed

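Bulk RNA of 47 muscle samples was sequenced with 60 bp single-end reads, per the labels' protocols. The GRCm38 build, the aligner HISAT2 2.1.0, Trim Galore 0.5.0, FastQC 0.11.8, edgeR 3.30.0 and featureCounts 1.6.2 are named in the submitters' processing notes. The authors deposited FPKM values on a log2 scale for 13500 genes. Their lowest value, -6.64, is log2 of 0.01, so FPKM was taken as 2 to the power of the deposited log2 value minus 0.01. What the authors did between counting and deposit is not given in the sources used here.

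Groups and replicate numbers came from the labels. The rule for the members was applied to log2(FPKM + 1). The members and all gene lists were chosen with earlier results of these data known. Level differences were tested with limma 3.58.1 in R 4.3.3 (1 mean for each of 12 groups, 35 residual degrees of freedom, eBayes with trend, two-sided, Benjamini-Hochberg over the 12000 genes with at least 1 FPKM in at least 3 libraries). The script was tested on simulated data. Named genes were all members, with library values for the 8 largest rises and falls, for the 4 of smallest adjusted p in each comparison (fewer where fewer were called), and for those nearest the threshold. Symbols and positions (1-based, GRCm38) came from GENCODE M21, which matched 13441 of the IDs. Python 3.11.15, pandas 2.3.3 and numpy 2.4.6 were used. Alternatives changed the scale, filter, scaling, thresholds, covariates and libraries.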

Additional observations from a re-analysis of the deposited data

Results flagged for a closer look

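Of 64 groups (32 members at 2 times with dexamethasone), 3 held a library whose gap to the next exceeded Dixon's 95% critical value for 4 samples, where chance gives about 1 in 20. In Sh2b2 at ZT0, replicate 1 was at 0.861 FPKM and the others at 1.27 to 1.33. In Itga5 at ZT0, replicate 4, the mouse of 11 weeks, was at 5.76 FPKM and the others at 3.05 to 3.40. In Cd34 at ZT0, replicate 1 was at 0.893 FPKM and the others at 0 to 0.0509.

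The effect of adrenalectomy differed between wild-type and RE-RE mice for 11 members by the limma interaction (log2 difference of differences, mean of both times, 4 libraries a group and 3 in WT ADX at ZT0), a test added after the data had been seen. The difference was 0.45 for Cdc42ep1, 0.50 for Itga5, 0.19 for Nsmf, 0.31 for Sparcl1, 0.73 for Rarres1, 0.35 for Tmem255b, 0.35 for Rbfox2, 0.31 for Akap6 and 0.80 for Cd34. It was -1.32 for St3gal5 (adjusted p = 4.71e-05) and -0.27 for Tenm3. The WT ADX libraries enter every one of these values, and all 7 of them had Nnt at 0, as did 2 of the 8 WT sham libraries. The part of this in the values was not tested.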

How the results depend on the processing

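The number of members depended on the scale and thresholds: 57 genes on the deposited scale of log2(FPKM + 0.01), 15 of them shared with the 32, and 51 on log2(FPKM + 0.1), 16 shared. It was 72 with a threshold of 0.5 and 9 with 0.8 in place of 0.6, and 17 with 0.15 and 109 with 0.3 in place of 0.2. Leaving out 1 dexamethasone library gave 26 to 41. The count of members called in RE-RE mice fell from 3 to 1 without the 7 libraries that shared at most 1 low value, and to 1 with a replicate block, and was 2 to 4 with 1 library left out. With a replicate block the other counts were 22 against WT ADX, 24 against WT ADX+ADR, 24 against WT sham, 13 for adrenalectomy and 20 for adrenaline. With age as a covariate, 21 members in place of 25 were called against WT sham and 12 in place of 15 for adrenalectomy of wild-type mice. Same-numbered libraries had median correlations of their deviations from -0.06 to 0.06, with single pairs from -0.21 to 0.27, and no pairing was seen. Numbers in WT ADX do not split between the times as in the other conditions, so this check cannot exclude a pairing. No called level difference of a member changed sign under the alternatives run. Calls of Tbl1xr1 against WT ADX and WT ADX+ADR were lost under some of them, as were calls of Rhbdl3, Hoxc11, Sh2b2, Itga5, Etl4 and Angpt1 against WT sham, of Lvrn, Mlec, Rbfox2, Angpt1, Tenm3, Akap6 and Cd34 for adrenalectomy of wild-type mice, of Tbl1xr1, Cdipt and Ptprs in RE-RE mice, and of Hoxc11, Lvrn, Cdipt and Rarres1 for adrenaline.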
